A study of Mus musculus with 8 samples.

Results

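The genes described here encode the subunits of the proteasome, the factors that assemble it and the proteins that cap or inhibit it. They were chosen by symbol: every gene of the Psma, Psmb, Psmc, Psmd, Psme, Psmf and Psmg series with a number, leaving out the inducible catalytic subunits Psmb8, Psmb9 and Psmb10. The rule found 41 genes, each with 1 probe that had a value on all 8 arrays, among 14030 genes with such a probe. Of these, 39 are proteasome genes and 2 match by name only. Psmc3ip encodes a meiotic recombination factor, and Psme3ip1 encodes a protein that binds the activator subunit Psme3. A table name matched 37 genes directly, and 4 were found through older names (Psmg1, Psmg2, Psmg3 and Psme3ip1). No named probe was found for 7 other genes of the complex (Psma5, Psmb3, Psmb11, Psme2, Psme2b, Psme3 and Psmg4), which are not analysed here.

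The proteasome is the cell's main machine for degrading proteins tagged with ubiquitin. Its core particle is a barrel of stacked rings, in which alpha subunits form the gates and beta subunits carry the cutting sites, and its regulatory particle recognises, unfolds and feeds in the substrate. In many cell types the subunit genes are regulated together, through the transcription factor Nfe2l1 at antioxidant response elements and through NF-Y at CCAAT boxes, and in embryonic stem cells high proteasome activity has been linked to pluripotency.

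RNA was measured on 8 one-colour TORAY arrays of mouse cells labelled as primordial germ cells with a Nanog-GFP reporter. The groups, with 2 arrays each, were E11.5 primordial germ cells (E11.5 PGC), cells cultured for 3 days (Day3) or 6 days (Day6), and embryonic germ cells (EG), the pluripotent line that germ cells give rise to in culture. Day3, Day6 and EG carry 2i+A83 in their names: PD325901 at 1 µM to block MEK, CHIR99021 at 3 µM to block GSK3, and A83-01 at 250 nM to block Activin and Nodal receptors. The labels give 1 protocol text for every sample, E11.5 PGC included: these inhibitors in a medium with 15% KSR, LIF and bFGF. The design text says that candidate pluripotent cells were sorted during culture, and the labels name neither the animals, the clones nor the number of EG lines, so p-values measure only the spread between these samples, which may be technical. Values are scanner intensities that the authors scaled to an array median between 19.99 and 20.01, so a change in a gene's intensity is relative to the whole array, and a fall in RNA per cell and a smaller share of cells with that RNA cannot be told apart.

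The array names fall into 2 series, called A and B. Series A holds both EG arrays and the first replicate of every other group, and series B the second replicate of those. Each comparison was therefore made in 2 models, without a block and with array series as a blocking term, and the changes within each series are given beside them. EG has no array in series B, so its blocked values assume that the series differ alike in every group. Nanog was bright on every array, between 1520 and 8992, and the germ cell gene Dazl had 39.2 and 124 in EG, against 2024 and 1867 in E11.5 PGC. Of 5 measured markers of gonadal somatic cells, 3 lay below the array median of 20 on every array, and their sum lay between 34.4 and 50.5 on all arrays. The summed intensity of 10 fibroblast and mesenchyme markers was 357 and 469 in E11.5 PGC, 1104 and 634 in Day3 cells, 4192 and 704 in Day6 cells, and 1700 and 782 in EG. Most of the EG sum was Vim (671 and 447) and S100a4 (808 and 190). In EG over E11.5 PGC 7 of the 10 changes lay above 0 and 3 below, with Col3a1 at 13.5 and 10.4 against 18.7 and 41.1. The sum of 7 endothelium markers was 341 and 504 in E11.5 PGC, 173 and 249 in Day3 cells, 105 and 205 in Day6 cells, and 105 and 116 in EG. Pecam1 (184 and 377) and Cldn5 (105 and 80.7) made up most of it in E11.5 PGC. The EG change lay below 0 for 6 of the 7 and above 0 for 1, Tek. The sum of 4 blood markers lay between 104 and 163 outside EG, where it was 311 and 335. Cd68, at 283 and 307, made up most of this EG sum (E11.5 PGC: 64.2 and 73.6). Tyrobp went the other way, with 11.2 and 10.4 in EG (E11.5 PGC: 43.3 and 34.6). Without the block, 3 of the 4 blood changes in EG over E11.5 PGC lay below 0 and 1 above. The part of these markers in the results below was not tested.

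Proteasome gene intensity was highest in E11.5 PGC and lower in the cultured groups for most of the complex. By group mean, 34 of the 41 genes were highest in E11.5 PGC, 5 at Day6 and 1 each at Day3 and in EG. The lowest group was EG for 20 genes, Day3 for 13, Day6 for 6 and E11.5 PGC for 2. The shifts were small: the span between a gene's highest and lowest group mean had a median of 0.66 on the log2 scale and ran between 0.18 and 2.07. The median deviation of the 41 genes from their own mean over the arrays was 0.43 and 0.20 in E11.5 PGC, 0.22 and -0.31 in Day3 cells, -0.04 and -0.05 in Day6 cells, and -0.15 and -0.19 in EG. Replicate 1 of Day3 (series A) therefore lay at the level of replicate 2 of E11.5 PGC (series B). Within each series Day3 lay below E11.5 PGC, and both EG arrays lay below both E11.5 PGC arrays. The same deviations over all 19524 probes measured on every array lay between -0.09 and 0.15. Of all probes tested, 61.9% at Day3, 61.0% at Day6 and 59.3% in EG had a lower mean than in E11.5 PGC. The share of all probes with their highest mean in E11.5 PGC was not computed.

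**Figure D1:**
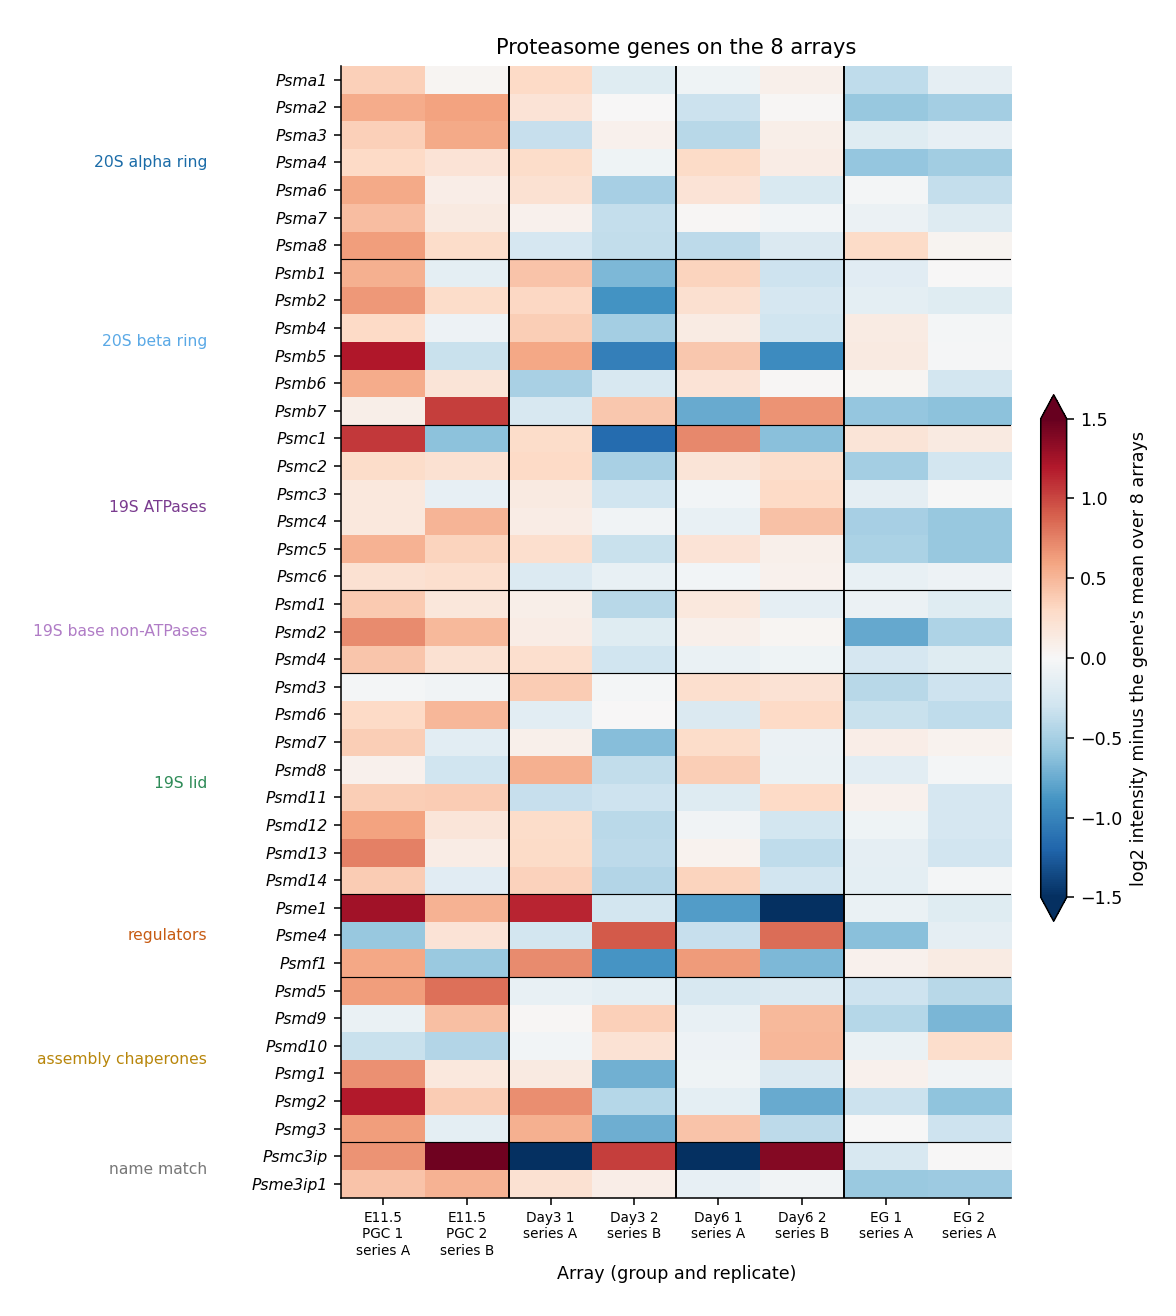
Log2 intensity of the 41 genes on the 8 arrays (columns, by group, replicate and array series) minus each gene's mean over the arrays (colour; red above, blue below), in rows by role. Most rows are red in the 2 E11.5 PGC columns and blue in the 2 EG columns. Psmb5, Psmc1 and Psmf1 are among the rows that alternate with the array series, and Psmc3ip does so at Day3 and Day6.

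Comparing EG with E11.5 PGC sets pluripotent cells against germ cells, the cell type that gives rise to them in culture. The intensity was lower in EG for 38 of the 41 genes in the model without the block, beside 59.3% of all probes tested. The median log2 change was -0.50, beside -0.16 over all probes tested. Both EG arrays lay below both E11.5 PGC arrays for 28 genes (68.3%; 39.9% of all probes tested) and above them for 1, Psmd10 (24.3% of all probes). At an adjusted p under 0.05 in limma, 4 genes fell (Psma2, Psmd2, Psmd5 and Psme3ip1) and 0 rose, which is 9.76%, beside 5.61% of all probes that fell and 5.57% that rose. At an unadjusted p under 0.05 the number was 9 (22%), below the share of all probes (27.3%). With the array series as a block, 14 of 41 fell (34.1%; 14.4% of all probes) and 0 rose (9.24% of all probes). Psma4, Psma6, Psmb2, Psmb5, Psmc1, Psmc5, Psmd13, Psme1, Psmg2 and Psmg3 were the genes added by the block. The median was -0.66 with the block and also within series A. Among 39 genes without the name matches, 3 fell without the block and 13 with it, beside the same 5.61% and 14.4% of all probes.

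The count of 4 rested on all of the arrays compared. It was 0 without either E11.5 PGC array or either EG array, 1 (Psmd2) without either Day3 array, and 1 (Psmd2) after quantile normalization. With the block it was 0 without E11.5 PGC replicate 1, 7 without E11.5 PGC replicate 2, 1 without EG replicate 1, 2 without EG replicate 2, 8 without either Day3 array, 12 without either Day6 array, and 6 after quantile normalization.

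Because the subunit genes are known to share promoter elements, the promoters of the genes were searched in RefSeq windows of 250 bases before to 50 after the start site (GRCm38.p6), which were found for 33 of the 41. The antioxidant response element core, TGACNNNGC on either strand, was present for 6 of 33 genes (18.2%), beside 14.0% of 27025 genes with such a window. The NF-Y box, CCAAT on either strand, was present for 12 of 33 (36.4%), beside 41.1%. Below are the promoter of Psma2, 1 of the 4 genes that fell without the block, which has 1 NF-Y box at position -54 (chr13:14612992-14613291, plus strand), that of Psmb5, with 1 antioxidant response element core at -47 (chr14:54617946-54618245, minus strand), and that of Psme1, the gene of the widest span, with neither motif (chr14:55578244-55578543, plus strand). Positions count from the start site, motifs are in capitals, and each sequence runs 5′ to 3′ along the gene.
Psma2: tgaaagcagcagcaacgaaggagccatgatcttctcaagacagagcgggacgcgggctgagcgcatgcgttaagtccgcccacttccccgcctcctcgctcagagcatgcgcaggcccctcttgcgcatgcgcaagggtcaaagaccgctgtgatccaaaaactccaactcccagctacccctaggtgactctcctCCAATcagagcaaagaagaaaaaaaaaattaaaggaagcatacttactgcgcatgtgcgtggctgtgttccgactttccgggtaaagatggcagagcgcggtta
Psmb5: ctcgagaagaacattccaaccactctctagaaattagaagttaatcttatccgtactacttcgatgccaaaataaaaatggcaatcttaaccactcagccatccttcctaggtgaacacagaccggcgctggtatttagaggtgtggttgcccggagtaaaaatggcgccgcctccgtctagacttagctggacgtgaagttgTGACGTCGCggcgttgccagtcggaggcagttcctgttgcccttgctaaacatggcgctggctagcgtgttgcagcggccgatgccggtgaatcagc
Psme1: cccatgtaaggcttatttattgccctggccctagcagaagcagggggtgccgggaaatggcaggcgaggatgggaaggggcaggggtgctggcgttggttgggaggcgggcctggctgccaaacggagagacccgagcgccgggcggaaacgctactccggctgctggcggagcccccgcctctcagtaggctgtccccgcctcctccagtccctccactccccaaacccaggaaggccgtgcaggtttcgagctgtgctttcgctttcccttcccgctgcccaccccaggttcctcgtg
Other genes with an antioxidant response element core were Psmb6, Psmc6, Psmd9, Psmd12 and Psme4. None of these was called in any comparison on all 8 arrays; in EG over E11.5 PGC with the block, Psmd12 was called without either Day6 array.

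The alpha ring forms the outer rings of the core particle and gates its entrance. All 7 measured alpha genes had lower means in EG than in E11.5 PGC (59.3% of all probes). Of these 1, Psma2, fell without the block, beside 5.61% of all probes. Psma2 (GRCm38.p6 chr13:14613242-14625673) had 3783 and 3910 in E11.5 PGC, 2964 and 2584 in Day3 cells, 2043 and 2595 in Day6 cells, and 1726 and 1800 in EG. The 2 EG arrays lay below all of the others, and the groups overlapped only between Day3 and Day6. Its log2 change was -1.13 ± 0.26 (SE, n = 2 arrays per group), 2.18-fold lower in EG than in E11.5 PGC (limma adjusted p = 0.0374 without the block, 0.0188 with it). With the block 3 of the 7 alpha genes fell, beside 14.4% of all probes, which is 2 more than without it. Psma4 had 1734 and 1815 in EG, against 3188 and 2992 in E11.5 PGC, a change of -0.90 ± 0.21 with the block (limma adjusted p = 0.0245); Day3 (3157 and 2485) and Day6 (3171 and 2811) had values near those of E11.5 PGC. For Psma6, which carried 4289 and 3439 in EG and 6521 and 4722 in E11.5 PGC, the blocked change was -0.80 ± 0.23 (limma adjusted p = 0.0490).

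Psma8, a relative of Psma7 that is known from the testis, was dim in all groups. It had 69.1 and 54.1 in E11.5 PGC, 37.5 and 34.6 in Day3 cells, 33.9 and 38.3 in Day6 cells, and 54.5 and 46.1 in EG. Both cultured groups lay below E11.5 PGC, while EG overlapped with it. The change at Day6 over E11.5 PGC was -0.76 ± 0.22 with the block, without a call (limma adjusted p = 0.0505).

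The beta ring holds the cutting sites, in Psmb5 (cuts after hydrophobic residues), Psmb6 (after acidic residues) and Psmb7 (after basic residues). None of the 6 measured beta genes passed the test without the block in any comparison. In EG against E11.5 PGC 2 of the 6 fell with the block, beside 14.4% of all probes. Psmb5 (chr14:54614120-54617995) separated by array series: series A arrays had 18347 in E11.5 PGC, 11905 in Day3 cells, 10571 in Day6 cells, and 8749 and 7898 in EG, while series B arrays had 6325, 3909 and 4159 in E11.5 PGC, Day3 and Day6. Within series A the order was E11.5 PGC, Day3, Day6, EG, and over all arrays EG and E11.5 PGC overlapped. The log2 change of Psmb5 in EG over E11.5 PGC was -0.37 ± 0.73 without the block (adjusted p = 0.792 in limma) and -1.12 ± 0.21 with it (adjusted p = 0.0136), and -1.14 within series A. Without E11.5 PGC replicate 1 the change without a block was 0.39. Psmb2, a beta subunit with no cutting site, had 1885 and 1832 in EG and 3268 and 2527 in E11.5 PGC, a blocked change of -0.97 ± 0.28 (limma adjusted p = 0.0468).

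Psmb7 separated in the opposite sense, with 1078 and 2079 in E11.5 PGC, 857 and 1349 in Day3 cells, 603 and 1612 in Day6 cells, and 676 and 661 in EG. Every EG array was below every E11.5 PGC and Day3 array. Its change in EG over E11.5 PGC was -1.16 ± 0.54 without the block (limma adjusted p = 0.217) and -0.66 ± 0.26 with it (0.113). Psmb6 had 7017 and 5472 in E11.5 PGC, 3391 and 4033 in Day3 cells, 5487 and 4841 in Day6 cells, and 4864 and 3941 in EG. Day3 was its lowest group, and no comparison of it passed the test.

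**Figure D2:**
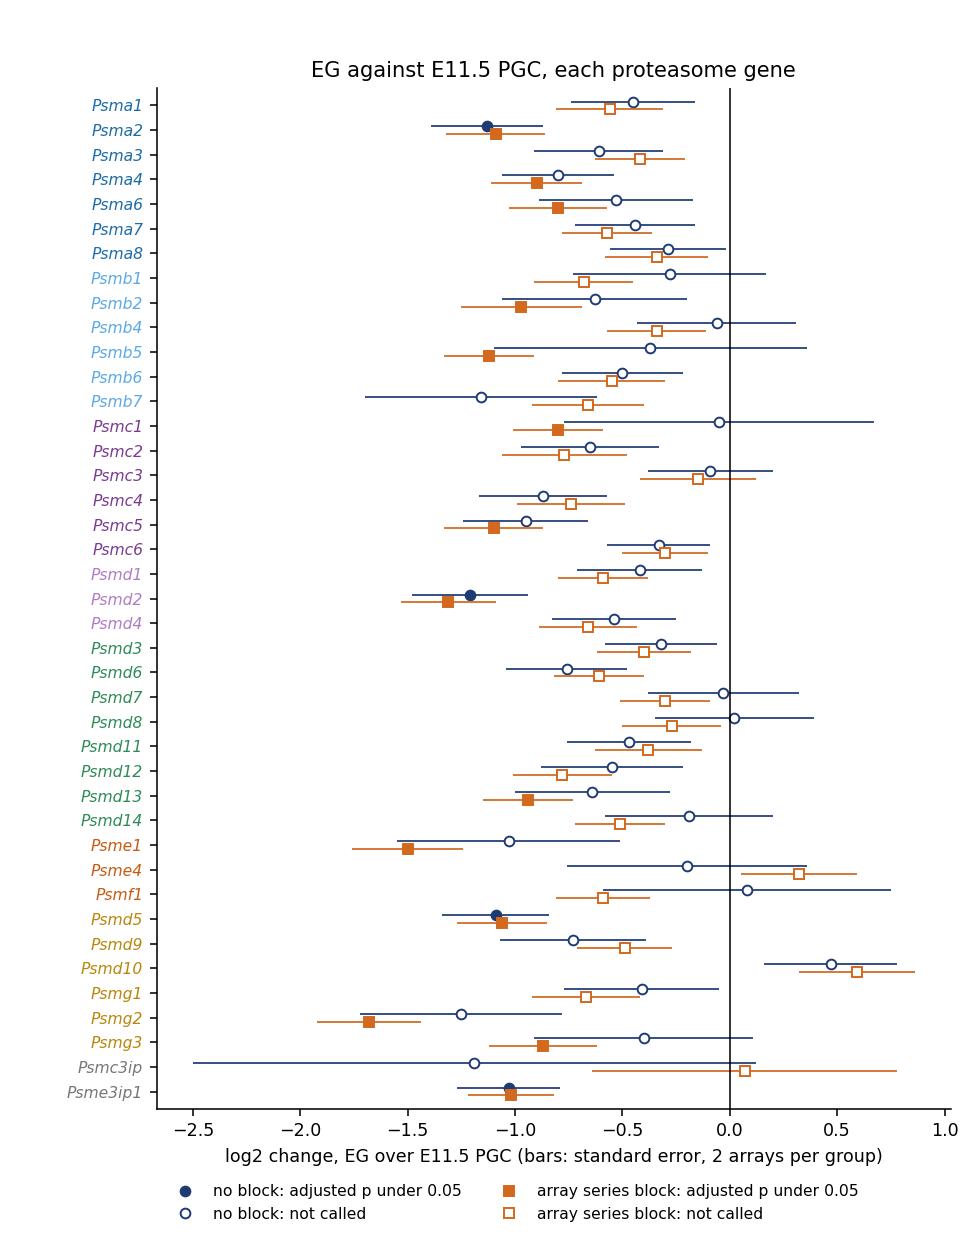
Log2 change in EG over E11.5 PGC (horizontal axis) for each of the 41 genes, coloured by role, without a block (blue circles) and with a block for the array series (orange squares); bars are standard errors, n = 2 arrays per group, and filled symbols passed an adjusted p of 0.05. Changes lie left of 0 for 38 genes in each model, 4 circles and 14 squares are filled, and the 2 models lie farthest apart for Psmc3ip, Psmb5, Psmc1 and Psmf1.

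The base of the regulatory particle contains a ring of ATPases (Psmc1 to Psmc6) that unfolds substrates, and the scaffold and receptor subunits Psmd1, Psmd2 and Psmd4. All 6 ATPase genes and all 3 others had lower means in EG than in E11.5 PGC (59.3% of all probes). Psmd2 (chr16:20651122-20663414), a scaffold that docks ubiquitin-carrying shuttle proteins, had 1720 and 1477 in E11.5 PGC, 1138 and 924 in Day3 cells, 1113 and 1070 in Day6 cells, and 618 and 763 in EG. The groups fell into 3 levels: E11.5 PGC above all other arrays, EG below all of them, and Day3 and Day6 overlapping between. Its change in EG over E11.5 PGC was -1.21 ± 0.27, 2.32-fold lower (limma adjusted p = 0.0330, and 0.0103 with the block). In the comparison of EG with Day6 its change was -0.67 ± 0.27, without a call (limma adjusted p = 0.366).

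Of the 6 ATPases, Psmc5 and Psmc1 fell in EG over E11.5 PGC with the block, beside 14.4% of all probes. Psmc5 had 1282 and 1210 in EG, against 2557 and 2250 in E11.5 PGC, and changed by -1.10 ± 0.23 with the block (limma adjusted p = 0.0180; 0.0849 without it). Day3 (2132 and 1419) and Day6 (2054 and 1882) lay between. Psmc1 had 3685 and 3542 in EG, against 6700 and 2099 in E11.5 PGC, with 3901 and 1443 at Day3 and 5301 and 2075 at Day6. Its arrays followed the series as those of Psmb5 did, and its blocked call (-0.80 ± 0.21, limma adjusted p = 0.0380) stood beside an unblocked change of -0.05 ± 0.72; that change was 0.78 without E11.5 PGC replicate 1 and 0.06 after quantile normalization. Psmc3 was among the steadiest genes, with a span of group means of 0.21: it had 2655 and 2184 in E11.5 PGC, 2620 and 1940 in Day3 cells, 2307 and 2929 in Day6 cells, and 2167 and 2374 in EG.

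The lid of the regulatory particle removes ubiquitin chains before degradation. Of its 8 genes, 7 had lower means in EG than in E11.5 PGC (59.3% of all probes). None of the 8 fell without the block and 1, Psmd13, fell with it, beside 5.61% and 14.4% of all probes. Psmd13, a lid scaffold, had 1436 and 924 in E11.5 PGC, 1038 and 649 in Day3 cells, 889 and 655 in Day6 cells, and 777 and 700 in EG. Both EG arrays and both Day6 arrays lay below both E11.5 PGC arrays, and the blocked change in EG was -0.94 ± 0.21 (limma adjusted p = 0.0229; -0.64 ± 0.36 and 0.309 without the block). Psmd14, the deubiquitinase of the lid, had a span of 0.19: 1986 and 1361 in E11.5 PGC, 1952 and 1133 in Day3 cells, 1931 and 1255 in Day6 cells, and 1387 and 1506 in EG. Its groups overlapped throughout. Its change in EG over E11.5 PGC was -0.19 ± 0.39 without the block and -0.51 ± 0.21 with it (limma adjusted p = 0.806 and 0.125). Within series A the change was -0.46. Psmd3 and Psmd8, also lid subunits, had their highest mean at Day6, without a call in any comparison; their changes at Day6 over E11.5 PGC were 0.27 ± 0.26 and 0.25 ± 0.37.

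Assembly chaperones guide the rings together and leave before the particle is finished. Of 6 measured, 5 had lower means in EG than in E11.5 PGC (59.3% of all probes). Without the block 1 fell and with it 3, beside 5.61% and 14.4% of all probes. Psmd5 (chr2:34852087-34870965), which binds the ATPase Psmc2 during assembly of the base, had 891 and 1022 in E11.5 PGC, 534 and 520 in Day3 cells, 486 and 496 in Day6 cells, and 465 and 432 in EG. It was the only one of the 41 genes called at Day3 over E11.5 PGC on all 8 arrays, and only with the block. All 6 later arrays lay below both E11.5 PGC arrays, as they also did for Psma2, Psma3 and Psmd2, among others. The values of Psmd5 within each later group differed by little. In EG over E11.5 PGC Psmd5 fell by 1.09 ± 0.25 on the log2 scale, 2.13-fold lower (limma adjusted p = 0.0344, and 0.0153 with the block).

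Psmg2, which with Psmg1 builds the alpha ring, had 1934 and 1104 in E11.5 PGC, 1377 and 632 in Day3 cells, 764 and 500 in Day6 cells, and 676 and 556 in EG. Day6 and EG did not overlap with E11.5 PGC, and in each group that had both series the series A array was the higher. Psmg2 had the largest change of the 41 genes in EG over E11.5 PGC in both models, -1.25 ± 0.47 without the block (limma adjusted p = 0.141) and -1.68 ± 0.24 with it (adjusted p = 0.00650), 3.20-fold lower with the block; within series A the change was -1.66. Its partner Psmg1 had 2150 and 1500 in E11.5 PGC, 1478 and 812 in Day3 cells, 1284 and 1155 in Day6 cells, and 1407 and 1297 in EG, with a blocked change of -0.67 ± 0.25 in EG and no call (limma adjusted p = 0.104). Psmg3, a chaperone that pairs with Psmg4, had 734 and 430 in E11.5 PGC, 690 and 287 in Day3 cells, 641 and 363 in Day6 cells, and 474 and 385 in EG. EG overlapped with E11.5 PGC, and the change of Psmg3 was -0.40 ± 0.51 without the block (limma adjusted p = 0.672) and -0.87 ± 0.25 with it (0.0464).

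Psmd10, known as gankyrin, and Psmd9 are chaperones of the base. Psmd10 had 273 and 252 in E11.5 PGC, 334 and 400 in Day3 cells, 326 and 484 in Day6 cells, and 320 and 412 in EG. All 6 later arrays lay above both E11.5 PGC arrays, yet no comparison passed the test, with a change of 0.60 ± 0.25 at Day6 over E11.5 PGC with the block (limma adjusted p = 0.130) and 0.59 ± 0.27 in EG (0.162). Psmd9, a dim probe, had 53.0 and 77.3 in E11.5 PGC, 57.5 and 72.5 in Day3 cells, 52.5 and 79.6 in Day6 cells, and 42.1 and 35.3 in EG. EG lay below the other groups, without a call in any comparison.

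Psme3ip1, which matches by name only, fell in EG without and with the block. It had 750 and 803 in E11.5 PGC, 651 and 600 in Day3 cells, 511 and 538 in Day6 cells, and 380 and 381 in EG. The 4 groups were ordered with no overlap between neighbours, and EG over E11.5 PGC gave -1.03 ± 0.24, 2.04-fold lower (limma adjusted p = 0.0397; 0.0164 with the block). The gene lies at chr8:94574940-94601962. Psmc3ip had 302 and 521 in E11.5 PGC, 55.7 and 389 in Day3 cells, 32.5 and 493 in Day6 cells, and 160 and 190 in EG. Its Day6 arrays differed by -3.92 (series A minus B, log2), so its group means rest on arrays that disagree, and no comparison of it was called in either model; with the block it fell at Day3 and Day6 over E11.5 PGC only when E11.5 PGC replicate 2, or for Day6 also Day6 replicate 2, was left out.

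The remaining 15 genes are Psma1, Psma3 and Psma7 of the alpha ring, Psmb1 of the beta ring, the ATPases Psmc2, Psmc4 and Psmc6, the base subunits Psmd1 and Psmd4, of which Psmd4 is a ubiquitin receptor, and the lid subunits Psmd3, Psmd6, Psmd7, Psmd8, Psmd11 and Psmd12. Their intensities lay between 486 and 5607, and none was called in any comparison in either model on all 8 arrays. In EG over E11.5 PGC their changes ran between -0.87 (Psmc4) and 0.02 (Psmd8) without the block and between -0.78 (Psmd12) and -0.27 (Psmd8) with it. Both EG arrays lay below both E11.5 PGC arrays for 12 of the 15, beside 39.9% of all probes. At Day6 over E11.5 PGC their changes ran between -0.62 (Psma3) and 0.27 (Psmd3).

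**Figure D3:**
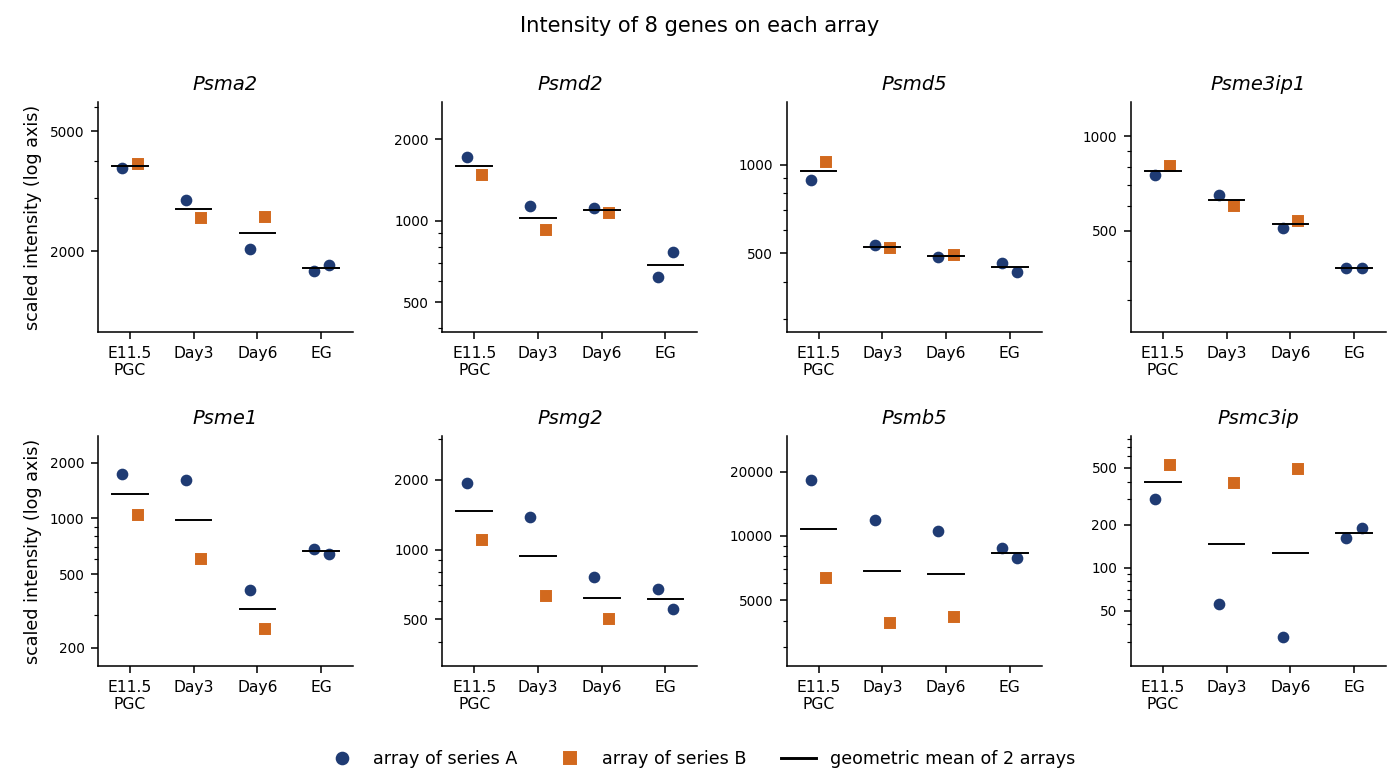
Scaled intensity (log axis) of 8 genes on each array, by group in order of stage; blue circles are arrays of series A, orange squares arrays of series B, and bars the geometric mean of the 2 arrays of a group. Psma2, Psmd2, Psmd5 and Psme3ip1 have close arrays and step down to EG at 1726 and 1800, 618 and 763, 465 and 432, and 380 and 381; Psme1 is lowest at Day6 (409 and 254), and the arrays of Psmb5 and Psmc3ip split by series.

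The comparison of Day6 with E11.5 PGC addresses the later culture. The comparison shares its E11.5 PGC arrays with those of Day3 and EG, and its Day6 arrays with those against Day3 and EG. Of the 41 genes 35 had lower means at Day6, beside 61.0% of all probes tested. The median log2 change was -0.29 (-0.37 within series A and -0.20 within series B), beside -0.16 over all probes tested. Both Day6 arrays lay below both E11.5 PGC arrays for 18 genes (43.9%; 31.0% of all probes) and above them for 2, Psmd3 and Psmd10 (18.6% of all probes). Without the block limma called 0 genes, beside 4.28% of all probes lower and 4.34% higher; 5 genes (12.2%) had an unadjusted p under 0.05, against 23.9% of all probes. With the block 5 fell (12.2%, near the 14.3% of all probes) and 0 rose (9.5% of all probes): Psme1, Psmg2, Psmd5, Psma2 and Psmb5.

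Psme1 had the widest span of the 41 genes. It encodes the alpha subunit of the PA28 activator, a cap that opens the core particle without ATP and is induced by interferon together with the inducible catalytic subunits. Psme1 (chr14:55578494-55581527) had 1742 and 1048 in E11.5 PGC, 1609 and 604 in Day3 cells, 409 and 254 in Day6 cells, and 684 and 643 in EG. Both Day6 arrays were below all 6 others. Its change at Day6 over E11.5 PGC was -2.07, 4.19-fold lower, with an SE of 0.52 and a limma adjusted p of 0.0544 without the block, and an SE of 0.24 and an adjusted p of 0.00301 with it. The change was -2.09 within series A and -2.05 within series B. With the block Psme1 stayed called when any 1 of the 8 arrays was left out, with changes between -2.26 and -1.88, and without the block it was called after quantile normalization (-1.97, limma adjusted p = 0.0239).

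At Day6 over Day3 Psme1 was the only one of the 41 genes called, and only with the block (1 lower, 0 higher, beside 0.829% of all probes lower and 0.974% higher). The change was -1.61 ± 0.24 (limma adjusted p = 0.0376), with -1.98 within series A and -1.25 within series B, and the call was lost when any 1 array was left out. Without the block no probe was called in this comparison (1783 probes, 8.91%, and 1 of the 41 genes, 2.44%, had an unadjusted p under 0.05). In EG over Day6 its change was 1.04 ± 0.52 (adjusted p = 0.466 in limma), 0.70 within series A, and both EG arrays were above both Day6 arrays. In EG over E11.5 PGC it fell with the block only, by 1.50 ± 0.26 (limma adjusted p = 0.0112; -1.03 ± 0.52 and 0.254 without the block).

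Of the other genes called at Day6 with the block, Psmg2 fell by 1.24 ± 0.22 (limma adjusted p = 0.0112; 0.163 without the block) and Psmd5 by 0.96 ± 0.19 (adjusted p = 0.0157; 0.0594 without the block). The changes of Psmd5 within series A and B were -0.87 and -1.04. Psma2 (-0.74 ± 0.21) and Psmb5 (-0.70 ± 0.19) had limma adjusted p-values of 0.0488 and 0.0444 with the block. Only Psme1 was called with the block without E11.5 PGC replicate 1 or Day6 replicate 1; the count was 2 (Psme1 and Psmc3ip) without E11.5 PGC replicate 2 and 3 without Day6 replicate 2, either Day3 array or either EG array.

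The activator Psme4 and the inhibitor Psmf1 did not pass the test in any comparison. Psme4, the PA200 activator known for chromatin-linked degradation in the testis, had 61.7 and 105 in E11.5 PGC, 75.1 and 172 in Day3 cells, 71.7 and 162 in Day6 cells, and 59.1 and 82.8 in EG; where a group had both series, the series B array was the brighter one. Psmf1, the PI31 protein, had 450 and 205 in E11.5 PGC, 493 and 163 in Day3 cells, 469 and 189 in Day6 cells, and 315 and 329 in EG. Its span of group means, 0.18, was the smallest of the 41, although arrays of one group differed by up to 1.59 on the log2 scale.

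The comparison of Day3 with E11.5 PGC addresses the first days in culture. Of the 41 genes 36 had lower means at Day3, beside 61.9% of all probes tested. The median log2 change was -0.45, beside -0.13 over all probes tested. The median was -0.31 within series A and -0.53 within series B, and it was -0.12 without Day3 replicate 2 and -0.28 after quantile normalization. Both Day3 arrays lay below both E11.5 PGC arrays for 15 genes (36.6%; 25.3% of all probes) and above them for 2, Psmd3 and Psmd10 (15.8% of all probes). Limma called 0 genes without the block (4, or 9.76%, had an unadjusted p under 0.05, against 14.4% of all probes), beside 0.754% of all probes lower and 1.33% higher. With the block 1 fell (2.44%; 4.0% of all probes), Psmd5, by 0.86 ± 0.19 (limma adjusted p = 0.0459), with -0.74 within series A and -0.98 within series B; the call was lost when any 1 array was left out. Psmb4, a beta subunit with no cutting site, differed little without the block here (-0.19 ± 0.37) and in EG (-0.06 ± 0.37). With the block its EG change was -0.34 ± 0.23, without a call. It had 7004 and 5411 in E11.5 PGC, 7341 and 3993 in Day3 cells, 6201 and 4618 in Day6 cells, and 6215 and 5598 in EG.

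Between the later stages the median change of the 41 genes was smaller than against E11.5 PGC, in the model without the block. With the block, that of EG over Day6 (-0.34) was larger in size than that of Day6 over E11.5 PGC (-0.29). At Day6 over Day3 the median change was 0.07 (-0.11 within series A and 0.25 within series B), beside -0.05 over all probes. Day6 arrays lay above both Day3 arrays for 3 genes (Psmb6, Psmc6 and Psmd11; 13.7% of all probes) and below them for 3 (Psmd5, Psme1 and Psme3ip1; 16.9% of all probes). In EG over Day6 the median was -0.15, and -0.34 with the block, beside -0.01 and -0.02 over all probes. After quantile normalization the median of the 41 genes was -0.01. Changes lay below 0 for 31 of the 41 genes without the block and 37 with it, beside 50.6% and 51.5% of all probes. EG arrays lay below both Day6 arrays for 15 genes (36.6%; 22.8% of all probes) and above them for 3 (Psma8, Psme1 and Psmg1; 23.4% of all probes). Limma called 0 of the 41 genes in either model (2, or 4.88%, had an unadjusted p under 0.05 without the block, against 13.0% of all probes), beside 0.0298% of all probes lower and 0.139% higher without the block, and 0.716% lower and 1.25% higher with it. The largest fall in mean was that of Psma4, -0.75 ± 0.26 without and -0.85 ± 0.21 with the block (limma adjusted p = 0.293 and 0.0899).

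The arrays of one group differed between the series about as much as the groups did. Series A minus series B had a median over the 41 genes of 0.28 in E11.5 PGC, 0.48 at Day3 and 0.06 at Day6, beside 0.11, 0.05 and -0.07 over all probes. The A array was the brighter one in all 3 groups for 22 genes and the B array for 7. For 3 genes, Psmb5, Psmc1 and Psmf1, A exceeded B by more than 1.00 in every group, with 1.54, 1.61 and 1.35 for Psmb5 in E11.5 PGC, Day3 and Day6. The 2 EG arrays, both of series A, differed by -0.49 to 0.32 (replicate 1 minus 2) over the 41 genes.

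**Figure D4:**
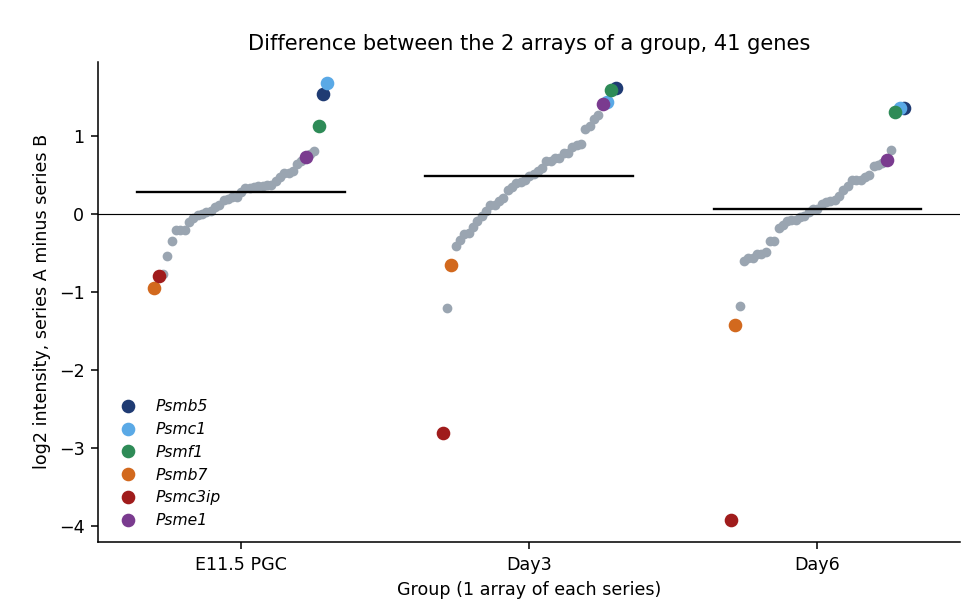
Log2 intensity of the series A array minus that of the series B array (vertical axis) for each of the 41 genes (points, sorted within a group) in E11.5 PGC, Day3 and Day6; black lines are medians, at 0.28, 0.48 and 0.06. Psmb5, Psmc1 and Psmf1 lie above 1.00 in all 3 groups, Psmb7 lies below 0 in all 3, and Psmc3ip reaches -3.92 at Day6.

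The inducible catalytic subunits, which replace Psmb6, Psmb7 and Psmb5 in the immunoproteasome, are not among the 41 genes and lay below the array median in E11.5 PGC. Psmb9, the counterpart of Psmb6, had 12.3 and 8.90 in E11.5 PGC, 20.6 and 17.8 in Day3 cells, 62.5 and 21.8 in Day6 cells, and 45.5 and 45.7 in EG. All later arrays lay above both E11.5 PGC arrays, and in EG over E11.5 PGC it rose by 2.12 ± 0.49 on the log2 scale (limma adjusted p = 0.0355; 0.0166 with the block). Psmb8, the counterpart of Psmb5, had 20 and 25.9 in EG, against 5.99 and 13.7 in E11.5 PGC, and rose with the block only (1.92 ± 0.24, limma adjusted p = 0.00421; 0.207 without the block). Psmb10, the counterpart of Psmb7, had 11.7 and 7.36 in E11.5 PGC, 24.8 and 19.8 in Day3 cells, 123 and 4.42 in Day6 cells, and 54.7 and 43.8 in EG, with no call. Its Day6 arrays lay on either side of those of E11.5 PGC. The list of 7 measured immunoproteasome and peptide transport genes also holds Tap1, Tap2, B2m and Irf1. In EG over E11.5 PGC 2 of the 7 rose, beside 5.57% of all probes, and 1 fell, beside 5.61%. Those that rose were Psmb9 and the peptide transporter Tap1, the latter by 1.39 ± 0.31 (limma adjusted p = 0.0325). Irf1, a transcription factor of the interferon response, fell by 1.57 ± 0.33 (limma adjusted p = 0.0285). With the block 3 rose and 1 fell, beside 9.24% and 14.4% of all probes. At Day6, where Psme1 was lowest, Irf1 had 125 and 71.2, against 822 and 655 in E11.5 PGC, and fell by 2.96 ± 0.33 (limma adjusted p = 0.00411), while Tap1 and B2m rose by 2.38 ± 0.31 and 5.28 ± 1.26 (limma adjusted p = 0.00618 and 0.0468). B2m had 3942 and 191 on the 2 arrays of Day6, the array with the higher value also being the one with the fibroblast marker sum of 4192.

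**Figure D5:**
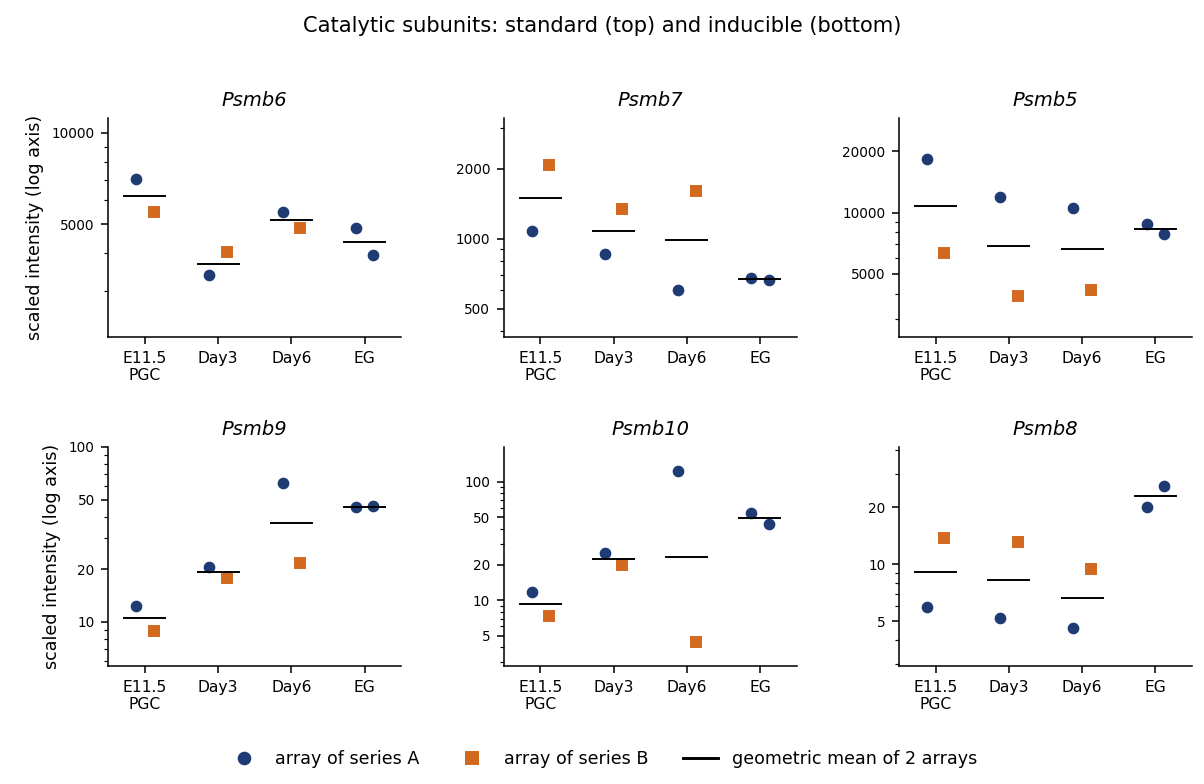
Scaled intensity (log axis) of the standard catalytic subunits Psmb6, Psmb7 and Psmb5 (top) and of their inducible counterparts Psmb9, Psmb10 and Psmb8 (bottom) on each array, by group in order of stage; blue circles are series A, orange squares series B, bars geometric means of 2 arrays. EG had 45.5 and 45.7 for Psmb9 and 20 and 25.9 for Psmb8, above every E11.5 PGC array of the same gene, while no standard subunit rose.

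Other partners of the proteasome were counted from a list of ubiquitin receptors, deubiquitinases, maturation factors and shuttles, of which 17 were measured. In EG over E11.5 PGC 13 had a change below 0 (59.3% of all probes). Without the block 1 fell and 0 rose, beside 5.61% and 5.57% of all probes. With the block 5 fell and 1 rose, beside 14.4% and 9.24% of all probes. The list's median was -0.47. Ecpas, a scaffold that holds the core and regulatory particles together, had 110 and 122 in EG, against 369 and 416 in E11.5 PGC, with 240 and 299 in Day3 cells and 176 and 195 in Day6 cells. Its groups did not overlap, and it fell by 1.76 ± 0.26 in EG (limma adjusted p = 0.00986; 3.38-fold lower) and by 1.08 ± 0.26 at Day6 (0.0498) over E11.5 PGC. Sem1, a lid subunit (2222 and 2303 in EG, 4777 and 3309 in E11.5 PGC), and Vcp, the ATPase that extracts substrates for the proteasome (1189 and 1190 in EG, 2592 and 2164 in E11.5 PGC), fell with the block, by 1.03 ± 0.20 and 1.10 ± 0.20 (limma adjusted p = 0.0157 and 0.0123). The shuttle receptor Rad23b and Zfand5 were the other 2 that fell with the block. Fbxo7, an F-box protein that binds Psmf1, rose with it, by 0.74 ± 0.20 (limma adjusted p = 0.0406).

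The Nfe2l1 and Nfe2l2 list holds 14 regulators and targets of the response that raises proteasome genes. Without the block 1 rose and 1 fell at Day6 over E11.5 PGC, beside 4.34% and 4.28% of all probes. With the block 3 rose and 3 fell at Day6, beside 9.5% and 14.3% of all probes. At Day3 over E11.5 PGC 2 rose and 0 fell with the block, beside 4.34% and 4.0% of all probes. In EG over E11.5 PGC 1 rose and 1 fell without the block, beside 5.57% and 5.61% of all probes. With the block 2 rose and 3 fell in EG, beside 9.24% and 14.4% of all probes. Nfe2l1, the regulator best known for proteasome genes, had 199 and 167 in E11.5 PGC, 200 and 133 in Day3 cells, 220 and 151 in Day6 cells, and 160 and 146 in EG, with no call. Nfe2l2 (Nrf2) rose at Day6, with 211 and 258, against 92.5 and 97.6 in E11.5 PGC (1.29 ± 0.29, limma adjusted p = 0.0383). Gclc, a glutathione synthesis enzyme and target of Nfe2l2, fell at Day6 (by 1.82 ± 0.31, limma adjusted p = 0.0143), and Srxn1, another target, rose in EG (by 2.60 ± 0.57, limma adjusted p = 0.0304). In EG over E11.5 PGC 6 of the 14 changes without the block lay above 0 and 8 below. Both EG arrays lay above both E11.5 PGC arrays for 6 genes and below them for 7, beside 24.3% and 39.9% of all probes.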

How the data were processed

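Per the labels' protocols, total RNA was amplified as aminoallyl aRNA and coupled to Cy5. The authors deposited a linear intensity per spot, with every array median near 20 (from the values); what else was done to them (background, missing values, tools) is not given in the sources used here. Missing values were left missing, no further normalization was applied, and intensities were converted to log2. Older symbols were updated through RefSeq synonyms (GRCm38.p6). Probes with 1 symbol numbered 16631 of 23473.

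limma 3.58.1 (R 4.3.3) was fitted to every probe over the 8 arrays in 4 groups. Its two-sided p-values were adjusted by Benjamini-Hochberg over all probes with values on both arrays of both groups (20015 to 20761), at an adjusted p under 0.05. Errors are standard errors of the log2 change. The genes, lists and rules were chosen with earlier results of these data known. Per-array values are given for called genes, the 6 widest and 4 narrowest spans of group means, and genes with a role of their own. Besides these members, the lists were those of immunoproteasome and peptide transport, partners, ubiquitin genes and E1 (2 measured, no call), Nfe2l1 and Nfe2l2, and cell markers. The script was tested on simulated data. The number of arrays limits the precision, and so does the spread between the array series. Alternatives were a replicate block, an array series block, quantile normalization, a pseudocount of 2.629, removal of the dimmest 30% of probes, the mean of a gene's probes, only the 4 arrays compared, and leaving out each array; blocked fits with a second setting and changes within a series were added after seeing the data. Figures were drawn with matplotlib 3.10.9.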

Additional observations from a re-analysis of the deposited data

How the results depend on the processing

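Limits: with 2 arrays a group, a call needs close replicates, and a lone array left in a group is assumed to vary like the others. The labels do not say what the array series stands for, and EG has arrays of 1 series only. Quantile normalization moved the median change of all probes in EG over E11.5 PGC to -0.10 and that of the 41 genes to -0.41. Of the 41 genes 35 were then below 0, beside 55.7% of all probes. In the block, quantile normalization moved the median of all probes by over 0.1, to -0.06 in this comparison and 0.10 in EG over Day6.

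Genes called, with every call lower: in Day3 over E11.5 PGC 0, and 1 with the array series block; in Day6 over E11.5 PGC 0, but 5 with the block (5 also with quantile normalization added), 1 after quantile normalization, and 2 each with a pseudocount and without the dimmest 30% of probes. In Day6 over Day3 0, but 1 with the block, alone or with quantile normalization; in EG over E11.5 PGC 4, but 14 with the block and 1 after quantile normalization. The median in EG over E11.5 PGC was -0.50, but -0.66 with the block, -0.31 with the block and quantile normalization, and -0.66 within series A; in EG over Day6 it was -0.15, but -0.34, -0.02 and -0.27, and -0.01 after quantile normalization alone. The cause was not tested.

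A replicate block on replicate numbers gave 3 calls in Day6 over E11.5 PGC (Psmd5, Psme1 and Psmg2) and 6 in EG over E11.5 PGC. Deviations of same-numbered arrays correlated over probes at r = 0.62, 0.547 and 0.694 among E11.5 PGC, Day3 and Day6, and at -0.0246, 0.00502 and 0.0611 with EG, so the numbers do not pair EG.

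Leaving out each array gave 0 to 4 calls in EG over E11.5 PGC (0 to 12 with the block), 0 to 1 in Day6 over E11.5 PGC (1 to 3 with the block), 0 in Day3 over E11.5 PGC (0 to 1) and 0 in Day6 over Day3 (0) and EG over Day6 (0). The medians ran between -0.66 and -0.34 in EG over E11.5 PGC (-0.72 and -0.58 with the block), -0.47 and -0.19 in Day6 over E11.5 PGC (-0.43 and -0.19), -0.65 and -0.12 in Day3 over E11.5 PGC (-0.58 and -0.25), -0.12 and 0.26 in Day6 over Day3 (-0.08 and 0.20), and -0.27 and -0.12 in EG over Day6 (-0.51 and -0.27). Signs turned without E11.5 PGC replicate 1 for Psmb5 in Day6 over E11.5 PGC (-1.47 to 0.07 over the arrays left out), and in EG over E11.5 PGC for Psmb5 (-1.20 to 0.39, with the block included) and Psmc1 (-0.89 to 0.78), and for Psmc1 after quantile normalization (0.06).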
